A study of Mus musculus with 24 samples.

Results

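The 10 mouse genes described here, for matrix, clotting, lipid transport and scavenging proteins of macrophages, were followed through leukaemia cells of NRASG12V/Mll-AF9 mice. They were Fn1, Vcan, Thbs1, F13a1, Msr1, Trem2, Emr1, Dab2, Pltp and Apoe, 10 of the 23361 gene rows measured. They were chosen by their FPKM differences from MacHigh cells, since several were among the largest falls there, so every contrast with MacHigh is given below as a description, without a test. RNA was sequenced from 24 libraries of acute myeloid leukaemia cells taken from spleens and sorted on Mac-1 (integrin alpha M), the receptor tyrosine kinase Kit and the surface antigen Sca-1 (Ly6a). The group MacLowKit+Sca1+ had 4 libraries, and the groups MacLowKit+Sca1-, MacLowKit-Sca1-, MacHigh and unsorted had 5 each. For brevity, the MacLow prefix is left off these names below. All 5 groups carry the same NRASG12V/Mll-AF9 genotype, a constitutively active NRAS with a fusion of MLL to AF9, on an F1 cross of FVB/n with C57/BL/6J, and no cells without these alleles were compared. The labels do not say whether replicates are separate animals or pools, so p-values measure the spread between these libraries, which may be technical.

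Macrophages and monocytes build and dissolve extracellular matrix, clear lipoproteins and dead cells, and hand lipid on to other cells. Fibronectin (Fn1), the proteoglycan versican (Vcan) and thrombospondin 1 (Thbs1) are secreted into the matrix, and the A subunit of clotting factor XIII (F13a1) is a transglutaminase that cross-links fibrin and fibronectin. Msr1 is the class A scavenger receptor for modified lipoproteins, Trem2 is a lipid-sensing receptor that signals through the adaptor Tyrobp, and Emr1 encodes F4/80, the antigen long used to mark mouse macrophages. Dab2 is a clathrin adaptor for lipoprotein receptors, Pltp transfers phospholipids between lipoproteins, and Apoe is the apolipoprotein that carries cholesterol out of macrophages.

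Each of the 10 symbols was matched to a RefSeq protein-coding gene of GRCm38.p6, the assembly that mm10 names, with Emr1 matched as a synonym of Adgre1. Fn1 lies on chromosome 1 (71585473 to 71653280), Thbs1 (118111876 to 118127133) and Pltp (164839518 to 164857708) on chromosome 2, Apoe (19696244 to 19701310) on chromosome 7 and Msr1 (39543232 to 39642750) on chromosome 8. F13a1 (36867178 to 37050244) and Vcan (89655309 to 89743027) are on chromosome 13, Dab2 (6299788 to 6440715) on chromosome 15, and Trem2 (48346401 to 48352276) and Emr1 (57358581 to 57483529) on chromosome 17. RefSeq promoter sequences, 250 bases before to 50 after a transcription start, matched 6 of the 10 genes with 10 starts (Vcan, F13a1, Pltp, Trem2, Apoe and Dab2); Fn1, Thbs1, Msr1 and Emr1 are named only. The promoters below are of 4 genes that took different levels in the same sorted groups. The other starts are not printed. Capitals mark GAGGAA or its complement TTCCTC, the core of the site of PU.1, a transcription factor of myeloid cells; the capitals are extended where the longer GAGGAAGT is present.
Apoe, first of 3 starts (chr7:19699139-19699438, minus strand): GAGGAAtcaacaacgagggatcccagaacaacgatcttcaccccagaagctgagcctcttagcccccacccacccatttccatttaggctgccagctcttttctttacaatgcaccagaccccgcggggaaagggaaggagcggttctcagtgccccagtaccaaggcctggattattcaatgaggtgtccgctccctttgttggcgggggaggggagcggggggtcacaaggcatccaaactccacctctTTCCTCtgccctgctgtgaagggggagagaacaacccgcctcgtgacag
Pltp (chr2:164857659-164857958, minus strand): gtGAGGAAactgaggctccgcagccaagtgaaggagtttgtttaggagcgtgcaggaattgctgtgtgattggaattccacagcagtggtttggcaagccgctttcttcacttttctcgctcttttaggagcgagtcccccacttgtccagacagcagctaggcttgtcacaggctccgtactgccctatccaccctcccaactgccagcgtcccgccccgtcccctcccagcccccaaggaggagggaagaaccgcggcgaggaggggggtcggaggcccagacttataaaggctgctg
Trem2 (chr17:48346151-48346450, plus strand): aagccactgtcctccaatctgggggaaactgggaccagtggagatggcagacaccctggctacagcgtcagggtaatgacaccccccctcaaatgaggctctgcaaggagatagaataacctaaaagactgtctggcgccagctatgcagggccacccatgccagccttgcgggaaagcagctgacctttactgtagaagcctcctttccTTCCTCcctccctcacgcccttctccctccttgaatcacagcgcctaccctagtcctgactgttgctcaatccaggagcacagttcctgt
F13a1, second of 2 starts (chr13:37049164-37049463, minus strand): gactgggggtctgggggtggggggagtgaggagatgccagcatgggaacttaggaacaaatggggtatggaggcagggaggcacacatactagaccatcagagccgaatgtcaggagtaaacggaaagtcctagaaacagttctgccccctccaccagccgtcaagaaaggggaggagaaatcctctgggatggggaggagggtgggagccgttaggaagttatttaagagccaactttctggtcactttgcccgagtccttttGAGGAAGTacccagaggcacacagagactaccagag
On both strands, GAGGAAGT was in 1 of the 10 starts, that of F13a1 shown above, 15 bases after the start, and in 3.2% of 32851 mouse promoters of the same length. The core GAGGAA is contained in GAGGAAGT and was added after the longer motif had been searched. It was in 8 of the 10 starts and in 28.3% of all promoters. These 8 starts belong to F13a1, Pltp, Trem2, Apoe and Dab2, and F13a1, Apoe and Dab2 have more than 1 among them. The start of Vcan and start 2 of Apoe had no match to the core and are not printed. Every printed start holds the core, so the printed starts do not represent all 10. Enrichment of the core in these genes was not tested. Counted from the start, the core began at position -40 in Trem2, at -248 in Pltp, and at -250 and 2 in Apoe. The AP-1 site TGAGTCA (5.2% of all promoters), the C/EBP site TTGCGCAA (0.183%) and the E-box CACGTG (7.15%) had no match in these windows.

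Expression was given as FPKM, fragments scaled by gene length and by the mapped fragments of the library, so levels can be set side by side between genes. The sum of FPKM in a library was between 446000 and 644400. Ratios of low values put each library at 0.801 to 1.97 times the depth of the median one, and the number of reads behind a value is unknown. In total 11599 rows had 1 FPKM or more in at least 4 libraries and were tested, the 10 genes among them, and no library listed any of the 10 at 0.001, the value this table holds in place of 0. Whether the cells carry macrophage markers was checked. Of 14 monocyte and macrophage markers, 14 had a mean of 1 FPKM or more in Kit+Sca1+, 11 in Kit+Sca1-, 13 in Kit-Sca1- and 14 in MacHigh. Csf1r, the receptor of the macrophage growth factor, ranged over 56 to 140 FPKM in Kit+Sca1+, 8.34 to 13.6 in Kit+Sca1-, 60.6 to 151 in Kit-Sca1- and 267 to 468 in MacHigh. Fewer cells that carry a transcript and less of it per cell cannot be told apart in these bulk samples.

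**Figure D1:**
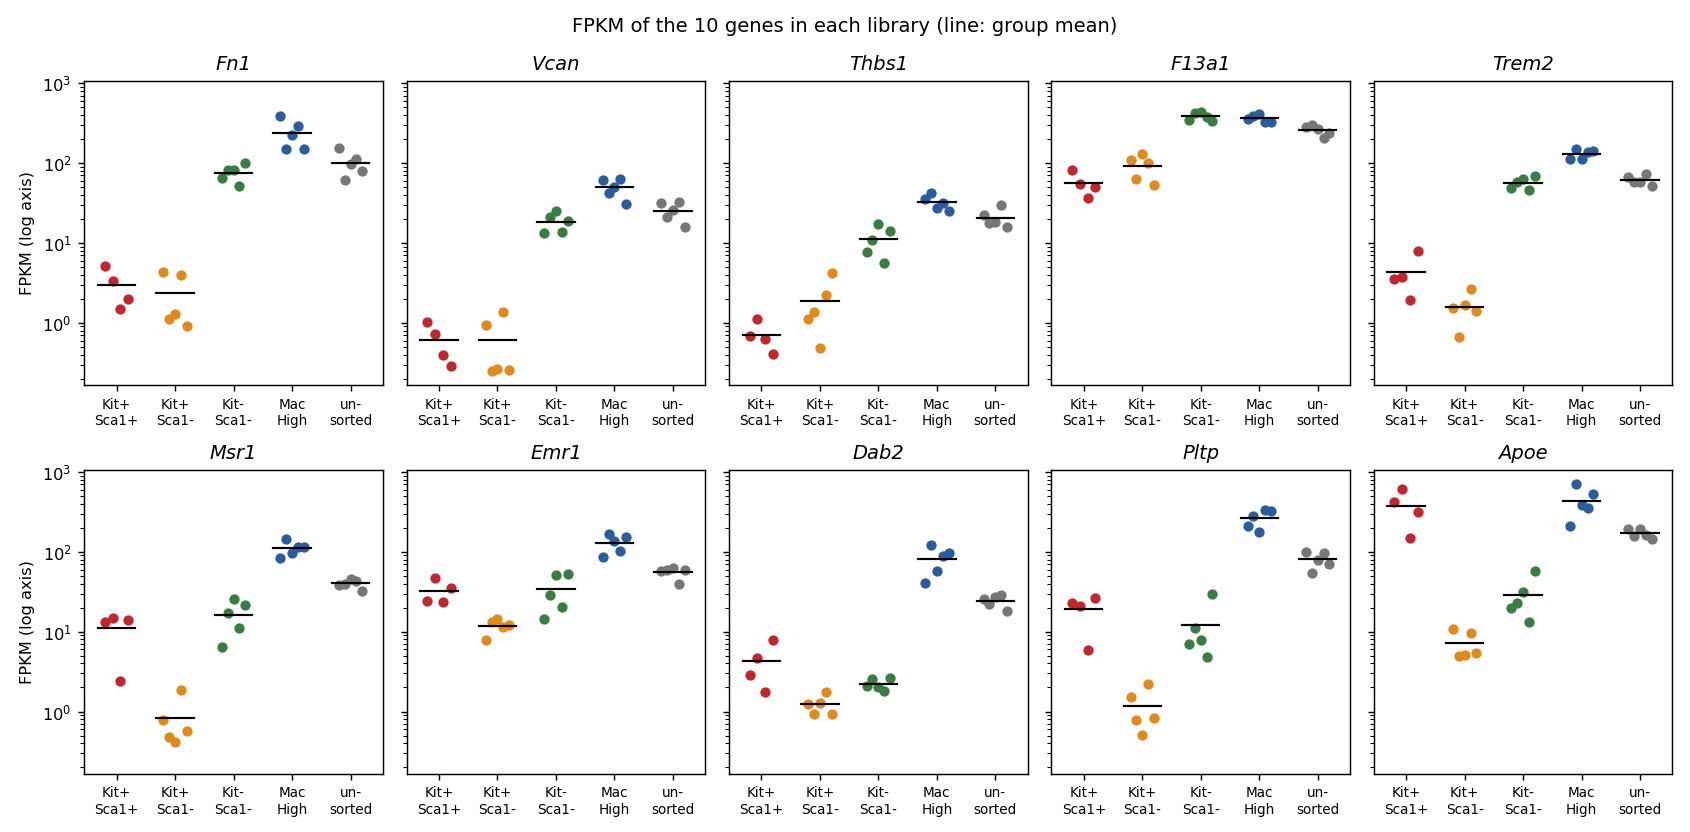
FPKM of the 10 genes on a log axis in each of the 24 libraries, by group, with replicates in order within a group and a line at the group mean. Apoe is high in Kit+Sca1+ and in MacHigh, F13a1 is high in Kit-Sca1- and in MacHigh, and the 3 matrix genes Fn1, Vcan and Thbs1 are lowest in the 2 Kit+ groups.

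The matrix genes were lowest in both Kit+ groups. Fn1 was at 5.08, 3.36, 1.49 and 1.98 FPKM in Kit+Sca1+ cells and 4.36, 1.12, 1.28, 4.01 and 0.899 in Kit+Sca1- cells. Fn1 in Kit-Sca1- cells was at 64.3, 81.6, 80.9, 51.7 and 100.3 FPKM, and in MacHigh cells at 386, 151, 227, 292 and 149 FPKM. The Kit+ groups overlapped each other, and both lay far below every Kit-Sca1- library, which in turn lay below every MacHigh library. Mean Fn1 was 1.24% of the MacHigh mean in Kit+Sca1+, 0.969% in Kit+Sca1- and 31.4% in Kit-Sca1-. Vcan had lower levels than Fn1 and nearly equal means in the Kit+ groups, with Kit-Sca1- and MacHigh again above them. It was at 1.04, 0.733, 0.401 and 0.284 FPKM in Kit+Sca1+ cells and 0.943, 0.248, 0.264, 1.37 and 0.256 in Kit+Sca1- cells. Vcan in Kit-Sca1- cells was at 13.3, 21.3, 24.8, 13.8 and 19.1 FPKM, and in MacHigh cells at 61.04, 41.9, 50.6, 64.2 and 30.4 FPKM. Its mean in Kit-Sca1- was 37.2% of that in MacHigh, and its means in the Kit+ groups were each 1.24% of it. Thbs1, which binds Cd47 and Cd36 on cells, was at 0.681, 1.11, 0.628 and 0.412 FPKM in Kit+Sca1+ cells and 1.13, 1.36, 0.4798, 2.25 and 4.19 in Kit+Sca1- cells. Thbs1 in Kit-Sca1- cells was at 7.68, 11.05, 17.4, 5.61 and 14.1 FPKM, and in MacHigh cells at 35.4, 42.8, 27.6, 31.95 and 25.3 FPKM. The lowest MacHigh library was thus above the highest of each MacLow group.

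F13a1, which acts on the same matrix, did not share the step between MacHigh and Kit-Sca1- cells. Its levels were 345, 430.1, 432, 382 and 334 FPKM in Kit-Sca1- and 356, 389, 410.4, 328 and 331 in MacHigh, 2 overlapping groups whose means (385 ± 46.1 and 363 ± 36.1, SD, n = 5 each) differed by 0.08 on the log2(FPKM + 1) scale. In the Kit+ groups it was lower and still well expressed, at 82.4, 55.05, 36.9 and 50.7 FPKM in Kit+Sca1+ and 111, 62.8, 132, 100.4 and 52.9 in Kit+Sca1-. In the median Kit-Sca1- library F13a1 ranked 134 of the 23361 rows by FPKM, and in the median Kit+Sca1+ library 1684. Its spread within Kit-Sca1- and MacHigh was small: the highest library was 1.29 and 1.25 times the lowest.

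The surface receptors Trem2, Msr1 and Emr1 had the same order of group means as Fn1. They differed in how far Kit+Sca1+ lay below Kit-Sca1-. Trem2 was at 3.503, 3.78, 1.94 and 7.84 FPKM in Kit+Sca1+ cells and 1.51, 0.659, 1.66, 2.69 and 1.42 in Kit+Sca1- cells. Trem2 in Kit-Sca1- cells was at 49.01, 58.7, 62.5, 45.8 and 69.4 FPKM, and in MacHigh cells at 112, 149, 113, 139 and 143 FPKM. Of the MacHigh mean of Trem2, Kit+Sca1+ cells held 3.25%, Kit+Sca1- cells 1.21% and Kit-Sca1- cells 43.5%. Msr1 was at 13.1, 15.02, 2.42 and 13.8 FPKM in Kit+Sca1+ cells and 0.772, 0.485, 0.4103, 1.87 and 0.578 in Kit+Sca1- cells. Msr1 in Kit-Sca1- cells was at 6.51, 16.9, 25.8, 11.01 and 21.5 FPKM, and in MacHigh cells at 82.8, 146, 97.5, 113 and 115 FPKM. Unlike Trem2, it was at similar levels in Kit+Sca1+ (a mean of 11.1 ± 5.84 FPKM) and in Kit-Sca1- (16.3 ± 7.76 FPKM), with overlap, while every Kit+Sca1- library lay below both. Emr1 was at 24.1, 47.1, 23.5 and 34.8 FPKM in Kit+Sca1+ cells and 7.81, 13.4, 14.5, 11.5 and 12.1 in Kit+Sca1- cells. Emr1 in Kit-Sca1- cells was at 14.5, 29.1, 51.2, 20.7 and 53.4 FPKM, and in MacHigh cells at 84.96, 169, 136, 102 and 155 FPKM. Of the MacHigh mean of Emr1, Kit+Sca1- cells held 9.15% and Kit-Sca1- cells 26.1%, and Kit+Sca1+ cells overlapped the Kit-Sca1- cells.

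The adaptor and the lipid carriers separated MacHigh from Kit-Sca1- most. Dab2 was at 2.88, 4.65, 1.77 and 7.85 FPKM in Kit+Sca1+ cells and 1.25, 0.934, 1.27, 1.78 and 0.935 in Kit+Sca1- cells. Dab2 in Kit-Sca1- cells was at 2.08, 2.55, 2.04, 1.79 and 2.66 FPKM, and in MacHigh cells at 40.5, 122, 57.9, 88.2 and 95.6 FPKM. Of the MacHigh mean of Dab2, Kit+Sca1+ cells held 5.31%, Kit+Sca1- cells 1.53% and Kit-Sca1- cells 2.75%. Pltp was at 22.6, 20.9, 5.86 and 26.7 FPKM in Kit+Sca1+ cells and 1.52, 0.776, 0.506, 2.198 and 0.8304 in Kit+Sca1- cells. Pltp in Kit-Sca1- cells was at 6.98, 10.97, 7.83, 4.82 and 29.7 FPKM, and in MacHigh cells at 208, 277, 177, 334 and 329 FPKM. Of the MacHigh mean of Pltp, Kit+Sca1+ cells held 7.18%, Kit+Sca1- cells 0.441% and Kit-Sca1- cells 4.55%. Apoe was the exception among the 10 genes in Kit+Sca1+. It was at 421, 604, 149 and 312 FPKM in Kit+Sca1+ cells and 10.7, 4.91, 5.09, 9.66 and 5.46 in Kit+Sca1- cells. Apoe in Kit-Sca1- cells was at 19.6, 22.95, 30.9, 13.03 and 58.1 FPKM, and in MacHigh cells at 209.6, 716, 388, 349.8 and 528 FPKM. Kit+Sca1+ and MacHigh overlapped (84.7% of the MacHigh mean), while Kit+Sca1- (1.64%) and Kit-Sca1- (6.59%) lay below every library of both. In the median library Apoe ranked 129 of 23361 rows in Kit+Sca1+ and 136 in MacHigh.

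These contrasts with MacHigh are the ones that picked the genes, and the following is only a description of how far each reached. Among the 11517 tested rows that were not at 0.001 throughout a group, 4 of the 10 genes were within the 20 largest falls in Kit+Sca1+ (Fn1 second, Vcan, Trem2 and Thbs1), 6 in Kit+Sca1- (Pltp first, then Fn1, Msr1, Trem2, Apoe and Dab2) and 3 in Kit-Sca1- (Dab2, Pltp and Apoe). The values of 9 of the 10 lay wholly below MacHigh in Kit+Sca1+, 10 of 10 in Kit+Sca1- and 9 of 10 in Kit-Sca1-, beside 19.0%, 23.1% and 19.4% of all tested rows, from which nothing is read here. The log2 differences ran from -5.92 (Fn1) to -0.29 (Apoe) in Kit+Sca1+, from -6.95 (Pltp) to -2.05 (F13a1) in Kit+Sca1- and from -4.57 (Dab2 and Pltp) to 0.08 (F13a1) in Kit-Sca1-. The 3 contrasts share the MacHigh libraries.

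**Figure D2:**
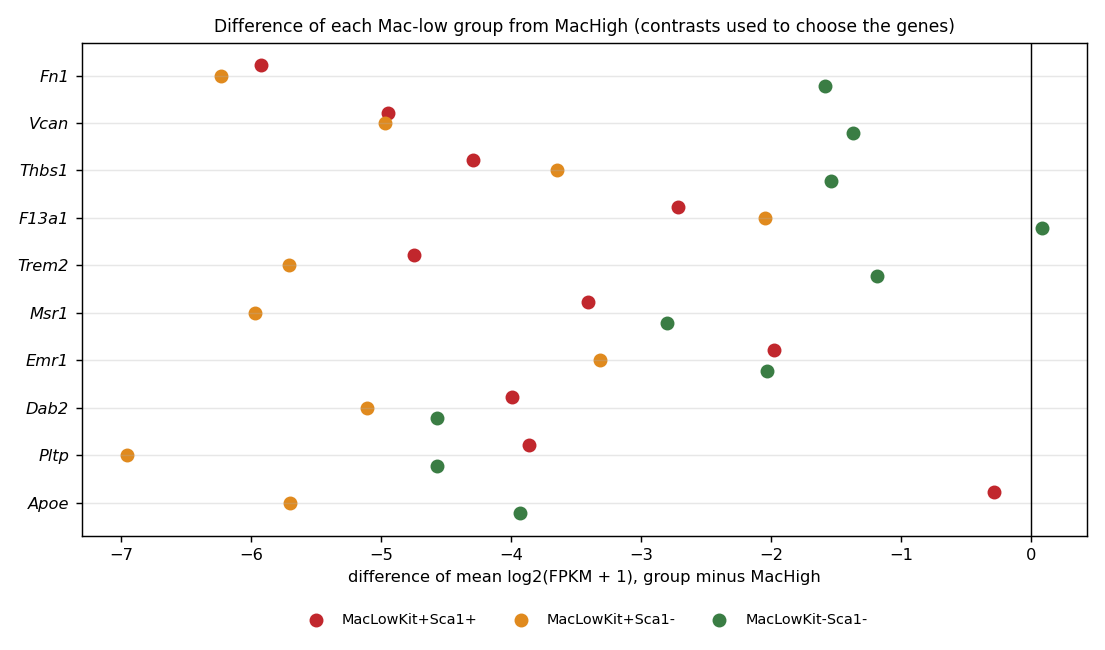
Difference of mean log2(FPKM + 1) of each MacLow group minus MacHigh for the 10 genes, with the line at 0 marking the MacHigh level. Apoe in Kit+Sca1+ (-0.29) and F13a1 in Kit-Sca1- (0.08) are the 2 points near 0, and Pltp in Kit+Sca1- (-6.95) is the farthest from it.

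The mean of unsorted cells lay between that of MacHigh and those of all 3 MacLow groups for 8 of the 10 genes, all but F13a1, which was higher in Kit-Sca1-, and Apoe, which was higher in Kit+Sca1+. Apoe was at 193, 158, 191, 163 and 146 FPKM in them, Pltp at 98.9, 55.01, 80.1, 96.9 and 70.2, F13a1 at 280.4, 296, 265, 204 and 238 and Fn1 at 155, 61.9, 96.9, 113 and 80.3. Their means were 38.8%, 30.3%, 70.7% and 42.1% of those in MacHigh. For the other 6 genes the unsorted mean was between 30.3% (Dab2) and 63.7% (Thbs1) of the MacHigh mean, with overlap between the groups for Fn1, Vcan and Thbs1. In the order of levels, unsorted and Kit-Sca1- were neighbours that overlapped for Fn1, Vcan, Thbs1, Trem2 and Emr1. For Apoe, Pltp, Msr1 and Dab2, in contrast, every unsorted library was above every Kit-Sca1- library; the mean ratio was 5.89 for Apoe and 2.46 for Msr1.

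The contrasts among the 3 MacLow groups were not used to choose the genes, although each group had been one arm of a contrast with MacHigh, and they were tested with limma on log2(FPKM + 1), with p-values adjusted over all 11599 rows and a threshold of 0.05. Differences are of mean log2(FPKM + 1) with SE, which understates the change of genes near 1 FPKM.

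In Kit+Sca1+ (n = 4) against Kit-Sca1- (n = 5) the matrix genes, F13a1 and Trem2 were lower and Apoe was higher. Fn1 averaged 2.98 ± 1.61 FPKM in Kit+Sca1+ and 75.8 ± 18.5 in Kit-Sca1- (SD; 25.5-fold lower, log2 difference -4.32 ± 0.35, adjusted p = 1.1e-09, limma). Vcan (log2 difference -3.58 ± 0.25, adjusted p = 1.26e-10), Thbs1 (log2 difference -2.75 ± 0.30, adjusted p = 9.8e-08), F13a1 (log2 difference -2.80 ± 0.22, adjusted p = 6.17e-10) and Trem2 (log2 difference -3.56 ± 0.23, adjusted p = 3.23e-11) also fell, each with no overlap between the groups; of all tested rows 16.5% were lower with no overlap. Apoe averaged 371 ± 191 FPKM in Kit+Sca1+ and 28.9 ± 17.5 in Kit-Sca1- and was 12.8-fold higher (log2 difference 3.64 ± 0.39, adjusted p = 8.38e-08). The other 4 were not called: Pltp (log2 difference 0.71 ± 0.40, adjusted p = 0.158), Dab2 (log2 difference 0.59 ± 0.28, adjusted p = 0.0902), Msr1 (log2 difference -0.61 ± 0.37, adjusted p = 0.195) and Emr1 (log2 difference 0.05 ± 0.30, adjusted p = 0.912). In all, 5 of the 10 were lower and 1 was higher, while 23.3% of all tested rows were called lower and 21.8% higher, 45.2% in all. The count of 5 is not independent of the choice of genes. Fn1, Vcan, Trem2 and Thbs1 were within the 20 largest falls of Kit+Sca1+ from MacHigh. Kit+Sca1+ replicate 3 was low in Pltp and Dab2: without it Pltp (log2 difference 1.16, adjusted p = 0.0155) and Dab2 (0.85, adjusted p = 0.016) were called higher. Pltp was also called without Kit-Sca1- replicate 5 (1.08, adjusted p = 0.0148), its highest library there.

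In Kit+Sca1+ (n = 4) against Kit+Sca1- (n = 5), groups that differ in the Sca-1 gate, the receptors, the adaptor and the lipid carriers were higher. Apoe averaged 371 ± 191 FPKM in Kit+Sca1+ and 7.18 ± 2.8 in Kit+Sca1- (51.8-fold, log2 difference 5.40 ± 0.39, adjusted p = 1.28e-10, limma), and Pltp 19.02 ± 9.098 in Kit+Sca1+ and 1.17 ± 0.688 in Kit+Sca1- (16.3-fold, log2 difference 3.09 ± 0.40, adjusted p = 8.99e-07). Msr1 was 13.5-fold higher (log2 difference 2.56 ± 0.37, adjusted p = 4.53e-06), and its values did not overlap; 2316 of the 11599 tested rows were higher with no overlap. Beside these, Emr1 (log2 difference 1.35 ± 0.30, adjusted p = 0.000676), Dab2 (log2 difference 1.12 ± 0.28, adjusted p = 0.00153) and Trem2 (log2 difference 0.96 ± 0.23, adjusted p = 0.00114) rose by less, and of these only Emr1 had no overlap between the groups; Trem2 was not called under quantile normalization (adjusted p = 0.0651). F13a1 went the other way, at 56.3 ± 19.1 FPKM in Kit+Sca1+ and 91.7 ± 33.1 in Kit+Sca1- (log2 difference -0.67 ± 0.22, adjusted p = 0.0122), but the groups overlapped. Without Kit+Sca1+ replicate 3, its lowest library, F13a1 was not called (-0.49, adjusted p = 0.0688), nor in a fit of the 2 groups alone (adjusted p = 0.0825). Fn1 (log2 difference 0.31 ± 0.35, adjusted p = 0.47), Vcan (log2 difference 0.03 ± 0.25, adjusted p = 0.936) and Thbs1 (log2 difference -0.64 ± 0.30, adjusted p = 0.0736) were not called. Thbs1 was called lower with the prefix of the library names as a block (adjusted p = 0.032), with pseudocounts of 0.1 (adjusted p = 0.0315) and 0.01 (adjusted p = 0.0285), after rescaling (adjusted p = 0.0369), with quantile normalization (log2 difference -1.08, adjusted p = 0.0021) and without Kit+Sca1- replicate 3 (adjusted p = 0.0161). For Vcan only 2 of the 9 libraries reached 1 FPKM, so this contrast says little about it. Thus 6 of the 10 were higher and 1 lower (2 in the fits that called Thbs1). Of all tested rows 26.8% were called higher and 28.5% lower, 55.2% in all. The count of 6 is not independent of the choice of genes. Pltp, Msr1, Trem2, Apoe and Dab2 were within the 20 largest falls of Kit+Sca1- from MacHigh. With libraries rescaled to one FPKM sum the median of all rows moved to -0.212 and the share of higher calls from 48.5% to 32.2%, and all 6 genes stayed called higher. They also did without Kit+Sca1+ replicate 3.

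In Kit+Sca1- (n = 5) against Kit-Sca1- (n = 5), groups that differ in the Kit gate, all of the genes but Dab2 were lower. Trem2 averaged 1.59 ± 0.727 FPKM in Kit+Sca1- and 57.1 ± 9.69 in Kit-Sca1- (35.9-fold lower, log2 difference -4.52 ± 0.22, adjusted p = 1.25e-13, limma) and Fn1 2.33 ± 1.699 in Kit+Sca1- and 75.8 ± 18.5 in Kit-Sca1- (32.5-fold lower, log2 difference -4.64 ± 0.33, adjusted p = 1.8e-10). Vcan (log2 difference -3.61 ± 0.24, adjusted p = 4.9e-11), Msr1 (log2 difference -3.16 ± 0.35, adjusted p = 1.47e-07), Pltp (log2 difference -2.38 ± 0.38, adjusted p = 1.83e-05), F13a1 (log2 difference -2.13 ± 0.21, adjusted p = 1.95e-08) and Thbs1 (log2 difference -2.12 ± 0.28, adjusted p = 1.74e-06) followed. Apoe (log2 difference -1.76 ± 0.37, adjusted p = 0.000384) and Emr1 (log2 difference -1.30 ± 0.29, adjusted p = 0.000683) fell least among those called, and of the 9 only Emr1 overlapped between the groups; of all tested rows 14.7% were lower with no overlap. Dab2 had no overlap either, with 1.78 FPKM in the highest Kit+Sca1- library and 1.79 in the lowest Kit-Sca1- library, but was not called (log2 difference -0.53 ± 0.26, adjusted p = 0.0939); with a pseudocount of 0.1 (adjusted p = 0.0283) or the 2 groups alone (adjusted p = 0.00637) it was. So 9 of the 10 were lower and 0 higher, while 26.3% of all tested rows were called lower, 50.2% in either direction. This count is not independent of the choice of genes, since 6 of them were within the 20 largest falls of Kit+Sca1- from MacHigh. After rescaling to one FPKM sum the median of all rows moved to 0.18 and the share of higher calls from 47.7% to 71.5%, and the 9 genes stayed called lower.

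**Figure D3:**
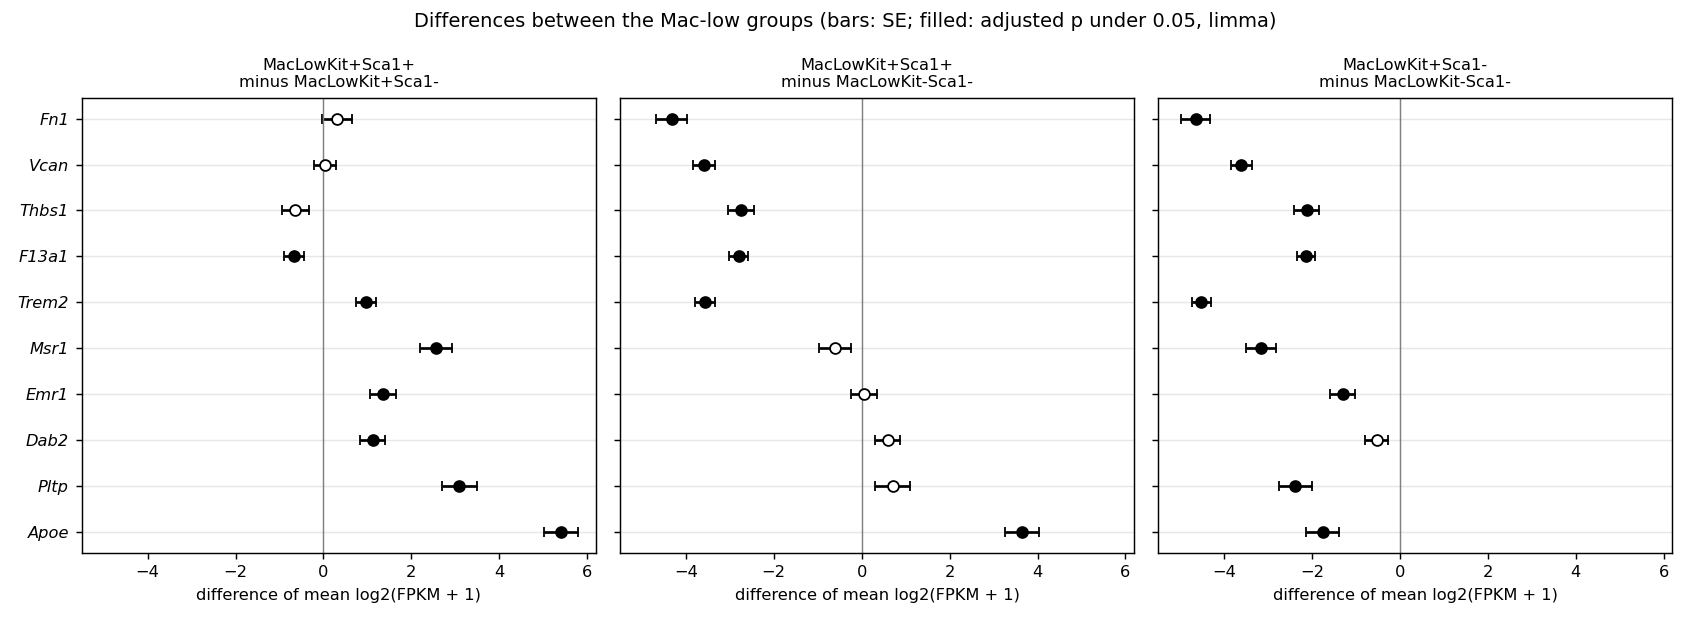
Difference of mean log2(FPKM + 1) with SE for the 10 genes in the 3 contrasts of MacLow groups; filled points have an adjusted p under 0.05. In Kit+Sca1+ minus Kit-Sca1- the matrix genes, F13a1 and Trem2 lie left of 0 and Apoe lies right of it (3.64).

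Libraries of one group also differed among themselves. In Kit+Sca1+ the third replicate had the lowest value of 8 of the 10 genes, with 149 FPKM of Apoe, 5.86 of Pltp and 2.42 of Msr1, and the highest of none. Within Kit+Sca1+ the highest library was 6.2 times the lowest for Msr1, 4.55 times for Pltp and 4.07 times for Apoe, against 2.01 times for Emr1. In Kit-Sca1- the fifth replicate was highest for 6 genes and the fourth lowest for 6, and Pltp (6.17 times) and Apoe (4.46 times) were again among the most spread. In MacHigh the second replicate was highest for 6 genes, Apoe (716 FPKM) and Dab2 (122) among them, but was next to lowest for Fn1 (151). The first MacHigh replicate had the reverse: the highest Fn1 (386 FPKM) and the lowest Apoe (209.6), Dab2 (40.5), Emr1 (85.0), Msr1 (82.8) and Trem2 (112). 

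Markers of other cells that make some of these proteins were measured beside them. Red pulp macrophages of the spleen express Apoe, and the summed FPKM of 12 of their markers was 911 to 2170 in Kit+Sca1+, 80.4 to 141 in Kit+Sca1-, 68.5 to 143 in Kit-Sca1- and 578 to 1100 in MacHigh, so that Kit+Sca1+ and MacHigh, the 2 groups with the highest Apoe, also had the highest sums. All 12 had a mean of 1 FPKM or more in Kit+Sca1+. Among them, Hmox1, heme oxygenase 1, was at 152 to 299 FPKM in Kit+Sca1+ and 264 to 624 in MacHigh. Vcam1 was at 104 to 319 FPKM in Kit+Sca1+, 0.213 to 1.03 in Kit-Sca1- and 2.96 to 11.6 in MacHigh. C1qa, a complement subunit, was at 110 to 329 FPKM in Kit+Sca1+ and 37.6 to 91.9 in MacHigh. On average, the MacHigh sum thus held more Hmox1 but less Vcam1 and C1qa than that of Kit+Sca1+. Kit+Sca1+ replicate 3, the lowest of its group in Apoe, Pltp and Msr1, was also the lowest in this sum (911 FPKM, against 1506, 2166 and 1316 in replicates 1, 2 and 4). In MacHigh the library lowest in this sum was replicate 3 (578 FPKM), while the lowest Apoe was in replicate 1. Dendritic cell markers summed to 13200 to 24600 FPKM in Kit+Sca1+, 641 to 4190 in Kit+Sca1-, 617 to 2330 in Kit-Sca1- and 8580 to 18400 in MacHigh, led by Cd74, the invariant chain of MHC class II. In Kit+Sca1+ replicate 3 they summed to 23882 FPKM, with 13206, 21612 and 24639 in replicates 1, 2 and 4. The part of these cells in the levels of Apoe, Pltp and Msr1 was not tested. Axl and Spic are in the red pulp list and also among the partners below, as Lgals3 and Mertk are in the monocyte and macrophage list.

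Platelets hold F13a1 and Thbs1, and the 14 megakaryocyte and platelet markers summed to 9.47 to 25.5 FPKM in Kit+Sca1+, 7.15 to 15.2 in Kit+Sca1-, 8.96 to 25.0 in Kit-Sca1- and 24.7 to 49.2 in MacHigh. Their highest member on average, except in Kit+Sca1- (Itgb3), was Pf4, platelet factor 4 (1.06 to 8.31 FPKM in Kit-Sca1- and 11 to 42.3 in MacHigh), and 9 of the 14 were under 1 FPKM on average in MacHigh. Fibroblasts make fibronectin and versican, and their 12 markers summed to 2.68 to 10.1 FPKM in Kit+Sca1+, 0.977 to 2.17 in Kit+Sca1-, 2.33 to 6.4 in Kit-Sca1- and 3.87 to 5.03 in MacHigh, with 10 of the 12 under 1 FPKM in MacHigh. Highest among them on average were Postn, periostin, in Kit+Sca1+ (4.78 FPKM), Col5a1, a collagen chain, in Kit+Sca1- (0.531 FPKM), and Acta2, smooth muscle actin, in Kit-Sca1- (1.85 FPKM) and MacHigh (1.56 FPKM). Endothelial markers summed to 28.3 to 54.7 FPKM in Kit+Sca1+, 11.8 to 20.7 in Kit+Sca1-, 31.3 to 44.5 in Kit-Sca1- and 22.4 to 34.0 in MacHigh. The highest of them was Pecam1, which leukocytes share. The part of platelets, fibroblasts and endothelium in the levels of the matrix genes and F13a1 was not tested. Monocyte and macrophage markers summed to 1490 to 2330 FPKM in Kit+Sca1+, 1200 to 1910 in Kit+Sca1-, 2110 to 3060 in Kit-Sca1- and 3560 to 4420 in MacHigh. They were led by Mpeg1 in Kit+Sca1+ (938 FPKM on average), by Ly6c2 in Kit+Sca1- (1160 FPKM) and Kit-Sca1- (889 FPKM), and by Lgals3 in MacHigh (719 FPKM). Of the lists with no known link to these genes, those of neutrophils, erythroid cells, T cells, B cells and NK cells had median sums of 19400, 59.5, 44.5, 27.5 and 203 FPKM in Kit+Sca1+ and 47400, 10.2, 10.5, 42.4 and 42.7 FPKM in MacHigh. S100a8, S100a9 and Ngp were listed at 0.001 in every Kit+Sca1- library, which can be a failed estimate. Kit+Sca1+ replicate 3, lowest in 8 of the 10 genes, had the highest neutrophil sum of its group (43410 FPKM, with 13382, 18269 and 20469 in replicates 1, 2 and 4), and the part of neutrophils in its low values was not tested.

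**Figure D4:**
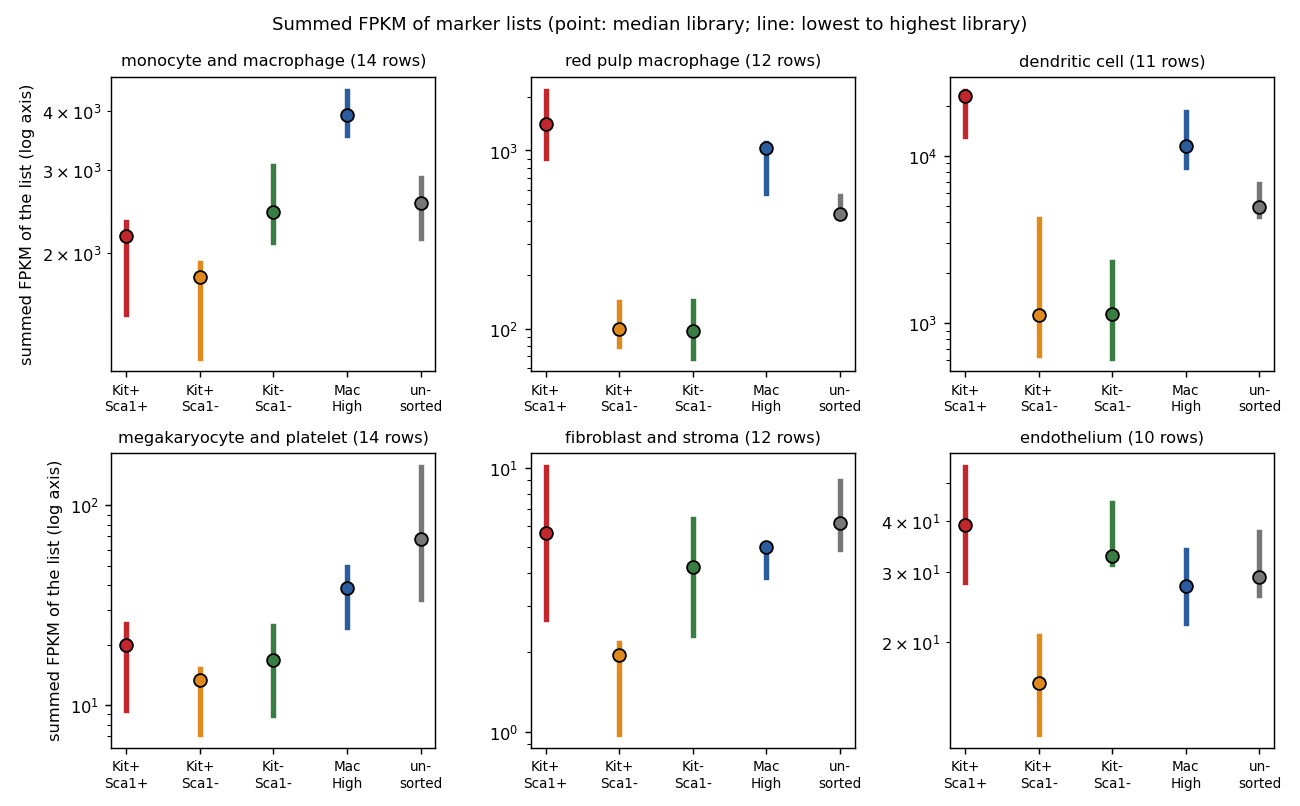
Summed FPKM of 6 marker lists on log axes, with a point at the median library and a line from the lowest to the highest library of each group. The red pulp macrophage and dendritic cell lists are highest in Kit+Sca1+, and the fibroblast list stays at or under 10.1 FPKM in every library.

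Partners of the 10 genes were taken from 6 lists, with the 10 genes themselves left out; the lists were written from general knowledge with earlier results of these data known. Against MacHigh, 46.0% of all tested rows were called in Kit+Sca1+ (22.4% lower, 23.6% higher), 62.8% in Kit+Sca1- (30.3% lower, 32.5% higher) and 50.8% in Kit-Sca1- (26.2% lower, 24.5% higher). Of 26 tested matrix and clotting partners, 18 fell and 2 rose in Kit+Sca1+, 22 fell and 1 rose in Kit+Sca1-, and 16 fell and 2 rose in Kit-Sca1-. These 3 contrasts share the MacHigh libraries. The list medians were -1.48, -1.66 and -0.63 on the log2 scale, beside 0.03, 0.03 and -0.02 for all rows. Rescaling to one FPKM sum raised the share of higher calls over all rows in these 3 contrasts from 51.3% to 62.8%, 51.7% to 71.8% and 48.3% to 58.5%. Between MacLow groups the list showed 3 higher and 10 lower in Kit+Sca1+ against Kit-Sca1-, 2 higher and 14 lower in Kit+Sca1- against Kit-Sca1-, and 10 higher and 7 lower in Kit+Sca1+ against Kit+Sca1-. Partner levels are means ± SD (n = 4 for Kit+Sca1+ and 5 for the other groups), and differences are of log2(FPKM + 1) with SE. Apart from the most abundant row of each list, the partners were named for large differences among these same sorted groups. The printed contrasts were picked after their values were seen. Small adjusted p-values of partners were thus favoured by the choice and are given only beside the levels. Spp1, the secreted matrix protein osteopontin, averaged 32.1 ± 7.8 FPKM in Kit+Sca1+ cells and 18.9 ± 4.47 in Kit+Sca1- cells. Spp1 in Kit-Sca1- cells was at 155 ± 16.1 FPKM, and in MacHigh cells at 226 ± 40.2 FPKM. It fell like Fn1 in Kit+Sca1+ against Kit-Sca1- (-2.26 ± 0.17, adjusted p = 2.73e-10, limma) and in Kit+Sca1- against Kit-Sca1- (-2.99 ± 0.16). Tgfbi, another adhesion protein of the matrix, was at 130 ± 39.9 FPKM in Kit+Sca1+ cells and 10.4 ± 4.73 in Kit+Sca1- cells. Tgfbi in Kit-Sca1- cells was at 112 ± 35.1 FPKM, and in MacHigh cells at 343 ± 22.3 FPKM. It was higher in Kit+Sca1+ than in Kit+Sca1- (3.58 ± 0.27). Tgm2, a transglutaminase like F13a1, was at 16.3 ± 5.84 FPKM in Kit+Sca1+ cells and 0.457 ± 0.148 in Kit+Sca1- cells. Tgm2 in Kit-Sca1- cells was at 1.38 ± 0.58 FPKM, and in MacHigh cells at 9.58 ± 3.31 FPKM. Unlike F13a1 it was higher in Kit+Sca1+ than in Kit-Sca1- (2.85 ± 0.23, adjusted p = 1.11e-09). Lgals3, the lectin galectin 3 and the most abundant of the list, was at 203 ± 35.8 FPKM in Kit+Sca1+ cells and 97.2 ± 68.1 in Kit+Sca1- cells. Lgals3 in Kit-Sca1- cells was at 425 ± 85.7 FPKM, and in MacHigh cells at 719 ± 68.7 FPKM. Lgals3 fell in Kit+Sca1+ against Kit-Sca1- (-1.06 ± 0.27, adjusted p = 0.0031).

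Of 17 tested receptors of matrix proteins, 8 rose and 5 fell in Kit+Sca1+ against Kit-Sca1- (median 0.26, all rows -0.03), 9 rose and 6 fell in Kit+Sca1+ against Kit+Sca1- (0.62, all rows -0.02), and 2 rose and 6 fell in Kit+Sca1- against Kit-Sca1- (-0.33, all rows -0.02). Against MacHigh 0 rose (1 with the prefix block, 1 after rescaling) and 7 fell in Kit+Sca1+, 4 rose and 12 fell in Kit+Sca1-, and 2 rose and 12 fell in Kit-Sca1-. Itga5, the alpha chain of the fibronectin receptor, was at 12.7 ± 2.11 FPKM in Kit+Sca1+ cells and 17 ± 1.42 in Kit+Sca1- cells. Itga5 in Kit-Sca1- cells was at 29.4 ± 4.58 FPKM, and in MacHigh cells at 41.4 ± 7.71 FPKM. Itga5 fell in Kit+Sca1+ against Kit-Sca1- (-1.15 ± 0.12, adjusted p = 7.82e-08, limma). Its partner chain Itgb1 was at 98.6 ± 5.83 FPKM in Kit+Sca1+ cells and 57.1 ± 3.09 in Kit+Sca1- cells. Itgb1 in Kit-Sca1- cells was at 81.6 ± 4.3 FPKM, and in MacHigh cells at 122 ± 10.8 FPKM. Itgb1 fell against MacHigh in Kit+Sca1- (-1.08 ± 0.06, adjusted p = 2.13e-12), in Kit-Sca1- (-0.57 ± 0.06) and in Kit+Sca1+ (-0.30 ± 0.07, adjusted p = 0.000891), where it was not called after rescaling to one FPKM sum (adjusted p = 0.157). Sdc3, a heparan sulphate proteoglycan, was at 139 ± 32.1 FPKM in Kit+Sca1+ cells and 5.79 ± 3.82 in Kit+Sca1- cells. Sdc3 in Kit-Sca1- cells was at 8.92 ± 4.58 FPKM, and in MacHigh cells at 102 ± 27.1 FPKM. Sdc3 was higher in Kit+Sca1+ than in Kit-Sca1- (3.89 ± 0.30, adjusted p = 6.1e-10), as Apoe was. Cd47, a receptor of Thbs1, was at 150 ± 23.9 FPKM in Kit+Sca1+ cells and 199 ± 21.8 in Kit+Sca1- cells. Cd47 in Kit-Sca1- cells was at 192 ± 38.4 FPKM, and in MacHigh cells at 138 ± 12.9 FPKM. Cd47 fell in Kit+Sca1+ against Kit+Sca1- (-0.41 ± 0.13, adjusted p = 0.0097), a call lost under quantile normalization (adjusted p = 0.099) and without Kit+Sca1+ replicate 4 (adjusted p = 0.0508).

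Of 25 scavenger and apoptotic-cell receptors and their ligands, 10 rose and 6 fell in Kit+Sca1+ against Kit-Sca1- (median 0.23), 15 rose and 7 fell in Kit+Sca1+ against Kit+Sca1- (1.27), and 4 rose and 10 fell in Kit+Sca1- against Kit-Sca1- (-0.43). Against MacHigh 5 rose and 10 fell in Kit+Sca1+, 3 rose and 18 fell in Kit+Sca1-, and 0 rose and 15 fell in Kit-Sca1- (medians -0.26, -1.28 and -0.7). Mertk and Axl are receptor kinases for dead cells. Mertk was at 18.2 ± 8.76 FPKM in Kit+Sca1+ cells and 0.138 ± 0.135 in Kit+Sca1- cells. Mertk in Kit-Sca1- cells was at 0.534 ± 0.2 FPKM, and in MacHigh cells at 7.63 ± 2 FPKM. Axl was at 71.2 ± 30.4 FPKM in Kit+Sca1+ cells and 1.9 ± 1.32 in Kit+Sca1- cells. Axl in Kit-Sca1- cells was at 3.68 ± 1.54 FPKM, and in MacHigh cells at 50.4 ± 20.1 FPKM. Mertk rose in Kit+Sca1+ against both Kit-Sca1- (3.56 ± 0.22, adjusted p = 1.49e-11) and MacHigh (1.09 ± 0.22, adjusted p = 0.000266, limma), and Axl against Kit-Sca1- (3.92 ± 0.30). Pros1, a ligand of Mertk, instead fell in Kit+Sca1+ against Kit-Sca1- (-2.21 ± 0.20), at 1.53 ± 0.54 FPKM in Kit+Sca1+ and 10.7 ± 2.4 in Kit-Sca1-. Tyrobp, the adaptor of Trem2, was abundant in every sorted group, also in Kit+Sca1-, where Trem2 averaged 1.59 FPKM. It averaged 630 ± 108 FPKM in Kit+Sca1+ cells and 836 ± 206 in Kit+Sca1- cells. Tyrobp in Kit-Sca1- cells was at 1190 ± 168 FPKM, and in MacHigh cells at 1940 ± 200 FPKM. Tyrobp fell in Kit+Sca1+ against Kit-Sca1- (-0.93 ± 0.16, adjusted p = 4.62e-05).

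**Figure D5:**
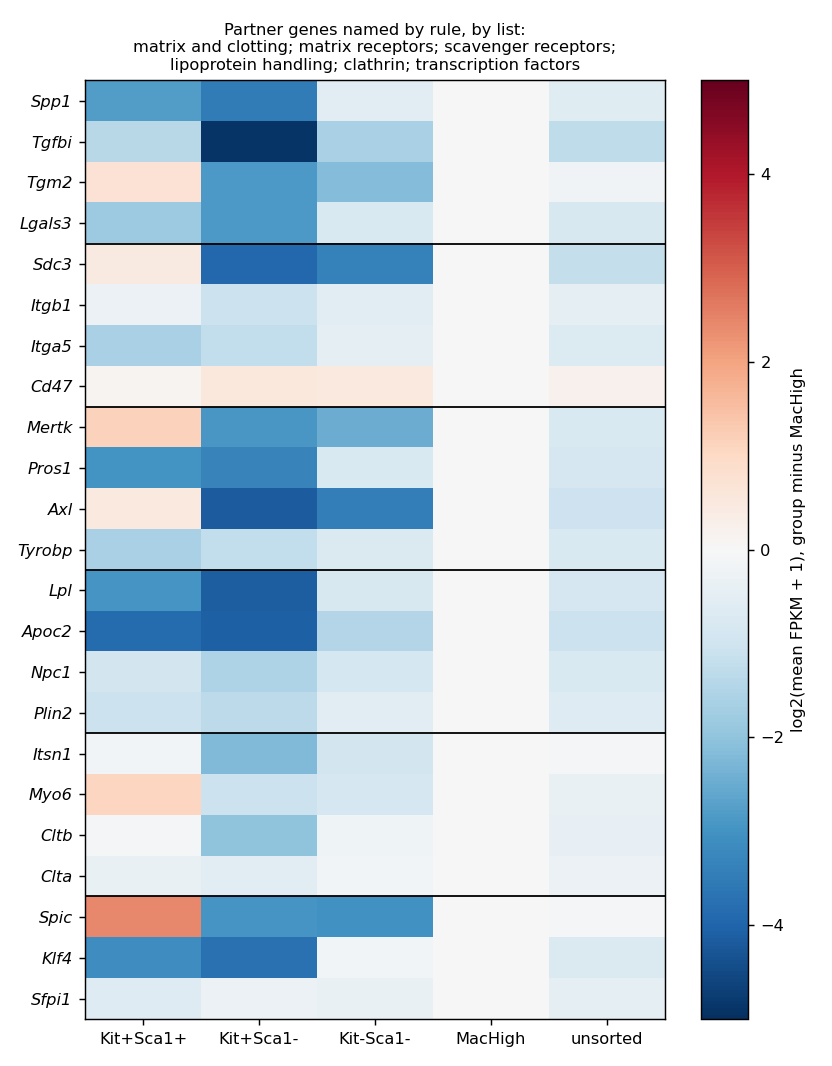
Difference of log2(mean FPKM + 1) from MacHigh for 23 partner genes in the 5 groups, with lines between the 6 lists. Spic, Mertk, Myo6, Tgm2, Sdc3 and Axl are red (higher than MacHigh) in Kit+Sca1+, where Spp1, Pros1, Lpl, Apoc2 and Klf4 are blue (lower). Of these, Sdc3 and Axl were not called against MacHigh.

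Of 26 tested lipoprotein and cholesterol genes, 10 rose and 9 fell in Kit+Sca1+ against Kit-Sca1- (median -0.06), 14 rose and 3 fell (5 with the prefix block, 5 after rescaling) in Kit+Sca1+ against Kit+Sca1- (0.56), and 4 rose and 15 fell in Kit+Sca1- against Kit-Sca1- (-0.45). Against MacHigh 5 rose (8 after rescaling) and 11 fell in Kit+Sca1+, 2 rose (5 after rescaling) and 19 fell in Kit+Sca1-, and 2 rose and 15 fell in Kit-Sca1- (medians -0.3, -1.15 and -0.61). Lpl, lipoprotein lipase, was at 28 ± 11.3 FPKM in Kit+Sca1+ cells and 11.8 ± 2.85 in Kit+Sca1- cells. Lpl in Kit-Sca1- cells was at 127 ± 24 FPKM, and in MacHigh cells at 221 ± 40.4 FPKM. Apoc2, its activator apolipoprotein, was at 3.02 ± 1 FPKM in Kit+Sca1+ cells and 2.43 ± 0.971 in Kit+Sca1- cells. Apoc2 in Kit-Sca1- cells was at 20.2 ± 6.14 FPKM, and in MacHigh cells at 57.1 ± 12.7 FPKM. Both fell in Kit+Sca1+ against Kit-Sca1- (Lpl -2.21 ± 0.22, adjusted p = 2.2e-08; Apoc2 -2.38 ± 0.24, adjusted p = 3.83e-08, limma), where Apoe rose. Npc1, which exports cholesterol from lysosomes, fell in Kit+Sca1- against Kit-Sca1- (-0.66 ± 0.09). Plin2, a lipid droplet coat protein, was at 108 ± 16.8 FPKM in Kit+Sca1+ cells and 91.2 ± 23.9 in Kit+Sca1- cells. Plin2 in Kit-Sca1- cells was at 151 ± 18 FPKM, and in MacHigh cells at 226 ± 32.2 FPKM. It fell in Kit+Sca1+ against Kit-Sca1- (-0.48 ± 0.17, adjusted p = 0.0231). The Plin2 call was lost under quantile normalization (adjusted p = 0.0698), without Kit+Sca1+ replicate 1 (0.0913) and without Kit-Sca1- replicate 5 (0.0514).

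Of 21 tested partners of Dab2 in clathrin endocytosis, 4 rose and 6 fell in Kit+Sca1+ against Kit-Sca1-, 7 rose and 6 fell in Kit+Sca1+ against Kit+Sca1-, and 6 rose and 9 fell in Kit+Sca1- against Kit-Sca1- (medians -0.03, 0.11 and -0.04). Against MacHigh 1 rose and 13 fell in Kit+Sca1+, 1 rose (3 with the prefix block, 6 after rescaling to one FPKM sum) and 14 fell in Kit+Sca1-, and 0 rose and 13 fell in Kit-Sca1- (medians -0.36, -0.53 and -0.36). Myo6, the motor that Dab2 binds, was at 5.49 ± 1.39 FPKM in Kit+Sca1+ cells and 0.444 ± 0.36 in Kit+Sca1- cells. Myo6 in Kit-Sca1- cells was at 0.703 ± 0.272 FPKM, and in MacHigh cells at 2.08 ± 0.515 FPKM. It was higher in Kit+Sca1+ than in MacHigh (1.06 ± 0.18, adjusted p = 3.48e-05, limma), while the Dab2 mean was 5.31% of that in MacHigh. The scaffold Itsn1 rose in Kit+Sca1+ against Kit+Sca1- (2.03 ± 0.18), and the light chain Cltb did too (1.97 ± 0.21). The light chain Clta was at 292 ± 30.9 FPKM in Kit+Sca1+ cells and 263 ± 35.7 in Kit+Sca1- cells. Clta in Kit-Sca1- cells was at 342 ± 28 FPKM, and in MacHigh cells at 378 ± 45 FPKM. Clta fell in Kit+Sca1- against Kit-Sca1- (-0.39 ± 0.10, adjusted p = 0.00211), but not after rescaling to one FPKM sum (adjusted p = 0.3).

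Of 22 macrophage transcription factors, 10 rose and 3 fell (6 with the prefix block) in Kit+Sca1+ against Kit-Sca1- (median 0.04), 14 rose and 3 fell in Kit+Sca1+ against Kit+Sca1- (1.21), and 2 rose and 14 fell in Kit+Sca1- against Kit-Sca1- (-0.7). Against MacHigh 4 rose and 13 fell in Kit+Sca1+, 1 rose and 20 fell in Kit+Sca1-, and 1 rose and 17 fell in Kit-Sca1- (medians -0.76, -2.22 and -1.16). Klf4, a factor of monocytes, was at 5.45 ± 1.65 FPKM in Kit+Sca1+ cells and 3.16 ± 1.62 in Kit+Sca1- cells. Klf4 in Kit-Sca1- cells was at 48.6 ± 5.58 FPKM, and in MacHigh cells at 53.8 ± 11.4 FPKM. Klf4 fell in Kit+Sca1+ against Kit-Sca1- (-2.97 ± 0.22, adjusted p = 2.18e-10, limma), as F13a1 and the matrix genes did. Spic, a factor of red pulp macrophages, was at 53.7 ± 16.1 FPKM in Kit+Sca1+ cells and 0.317 ± 0.165 in Kit+Sca1- cells. Spic in Kit-Sca1- cells was at 0.246 ± 0.193 FPKM, and in MacHigh cells at 9.22 ± 3.35 FPKM. In Kit+Sca1+ against Kit-Sca1- it rose by a log2 difference of 5.42 ± 0.21, adjusted p = 3.23e-14 (limma). Sfpi1, which encodes PU.1, was at 273 ± 43.4 FPKM in Kit+Sca1+ cells and 351 ± 67 in Kit+Sca1- cells. Sfpi1 in Kit-Sca1- cells was at 327 ± 43.8 FPKM, and in MacHigh cells at 426 ± 23.1 FPKM. In Kit+Sca1- against MacHigh its log2 difference was -0.30 ± 0.12, adjusted p = 0.0369 (limma). It turned to 0.03 (adjusted p = 0.789) after rescaling to one FPKM sum, so no direction is given for that contrast. In the main fit against MacHigh, Sfpi1 was lower in Kit+Sca1+ (-0.66 ± 0.13, adjusted p = 0.000235, limma) and in Kit-Sca1- (-0.39 ± 0.12, adjusted p = 0.01). Neither of these was followed under rescaling, which moved the median of all rows to 0.126 and 0.064.

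The rows whose profile over the 5 groups was nearest to the median profile of the 10 genes were Ms4a6d, Sirpb1a, Ace, Cx3cr1, Ccdc109b and Klra2. Likeness was the root mean square difference of the 5 centred group means of log2(FPKM + 1), which was 0.179 for Ms4a6d and 0.381 for Klra2, and between 0.371 (Msr1) and 1.72 (Apoe) for the 10 genes themselves. Ms4a6d was at 8.28 ± 4.35 FPKM in Kit+Sca1+ cells and 1.5 ± 0.782 in Kit+Sca1- cells. Ms4a6d in Kit-Sca1- cells was at 25.5 ± 6.61 FPKM, and in MacHigh cells at 142 ± 34.3 FPKM. Cx3cr1, the fractalkine receptor of monocytes, was at 6.83 ± 3.59 FPKM in Kit+Sca1+ cells and 1.36 ± 0.274 in Kit+Sca1- cells. Cx3cr1 in Kit-Sca1- cells was at 29.9 ± 7.41 FPKM, and in MacHigh cells at 96.4 ± 26.5 FPKM. Of the tested rows outside the 10 genes, 15.8% lay nearer to this median profile than Apoe and 2.29% nearer than F13a1, so these 2 were the genes least like it.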

How the data were processed

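RNA of 24 libraries was measured, and the authors deposited one table of FPKM values per gene and library; TopHat2 2.0.4, Cuffdiff and the mm10 build are named in the submitters' processing notes, without settings. Every sample column of the table was matched to a library by its name, and 0 columns were left without one. The table gives 0.001 in place of 0. It holds no counts, so depth is known only relative to the median library (0.801 to 1.97), and no counting interval is given.

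From the deposited FPKM, 11599 of 23361 rows, those that reached 1 FPKM in 4 libraries or more, were tested with limma 3.58.1 in R 4.3.3 on log2(FPKM + 1), with a trend of variance on mean, all 24 libraries in one fit, and Benjamini-Hochberg adjustment over all rows at a threshold of 0.05. The fit was tested on simulated data for the contrast of Kit+Sca1+ with Kit+Sca1- over 11599 rows: of 100 rows changed by 1 on the log2 scale 93 were called, and of 100 changed by 2, 99. The 10 genes and all lists were chosen with earlier results of these data known. Named partners were, in each list, the 3 rows with the largest moderated F statistic among the 4 sorted groups and the row with the highest mean FPKM. The contrasts whose tests are printed for these partners were picked after their values were seen, as were the markers Csf1r, Vcam1 and C1qa. They were 47 in all, besides Sfpi1 in Kit+Sca1+ and in Kit-Sca1- against MacHigh. The markers with the highest mean were named after their levels were seen. A gene that the rule named is not reported here. The nearest 6 profiles were taken by root mean square distance.

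The prefix of the sample names (6 values) paired libraries of the 3 MacLow groups: the deviations of same-prefix libraries from their group means correlated at 0.136 or more in every pair, with lowest values of 0.136, 0.191 and 0.279 in the 3 contrasts. In the contrasts with MacHigh the lowest values were 0.0477 (Kit+Sca1+), -0.049 (Kit+Sca1-) and 0.143 (Kit-Sca1-). Alternatives were other pseudocounts, filters, scalings, library weights, the 2 groups alone, blocks, and leaving out each library. Promoters came from RefSeq (GRCm38.p6); protein sequences were not used here.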

Additional observations from a re-analysis of the deposited data

Results flagged for a closer look

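Of 50 checks of a gene in a group, 3 had a library far from the others, by Dixon's criterion at its 95% level, where chance alone flags about 1 in 20. Pltp in Kit+Sca1+ replicate 3 was at 5.86 FPKM, below 20.9 to 26.7 FPKM in the other 3 libraries. Msr1 in the same library was at 2.42 FPKM, below 13.1 to 15.0 FPKM. Emr1 in unsorted replicate 4 was at 39.9 FPKM, the lowest of its group.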

How the results depend on the processing

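Of the tests of the 10 genes under the alternatives, 989 kept their direction and their side of the threshold, 12 passed it only under the alternative, 3 no longer passed it and 15 changed sign, all 15 in tests that had not been called. For the printed partner tests these numbers were 1566, 0, 15 and 1. They cover 47 tests, without Sfpi1 in Kit+Sca1+ and in Kit-Sca1- against MacHigh. Emr1 in Kit+Sca1+ against Kit-Sca1- ran from -0.2 to 0.25 on the log2 scale when single libraries were left out. Fn1 in Kit+Sca1+ against Kit+Sca1- was -0.14 with quantile normalization and -0.02 with library quality weights. Vcan in that contrast was -0.04 after rescaling to one FPKM sum, -0.41 with quantile normalization, -0.06 with the title number as replicate block, -0.16 with weights, and -0.09 to 0.18 without single libraries. Sfpi1 in Kit+Sca1- against MacHigh was 0.03 after rescaling. The number of the 10 genes called lower in Kit+Sca1+ against Kit+Sca1-, 1 as reported, was 2, with Thbs1 gained, with pseudocounts of 0.1 and 0.01, rescaling, quantile normalization and the prefix as replicate block, 0 with the 2 groups alone, and 0 to 2 without single libraries (0 without Kit+Sca1+ replicate 3, 2 without Kit+Sca1- replicate 3). The number called higher in Kit+Sca1+ against Kit-Sca1- was 1 to 3 without single libraries. Rescaling gave 4280 rows higher and 1708 lower in Kit+Sca1- against Kit-Sca1-. The cause of these shifts was not tested. The prefix block changed the call of 1 test of the 10 genes, that of Thbs1 given above, and no other. Same-numbered titles did not pair the libraries (lowest correlation -0.293), and that block left the counts of the 10 genes called unchanged, at 6 higher and 1 lower in Kit+Sca1+ against Kit+Sca1-. Of 144 list counts recomputed under rescaling or the block, 9 moved by over 1.5 times, each given beside its count above. Vcan and Thbs1 in the Kit+ groups lay near 1 FPKM, where the log2(FPKM + 1) scale limits what can be seen. So did Msr1, Pltp, Dab2 and Trem2 in Kit+Sca1- (means of 0.823, 1.17, 1.23 and 1.59 FPKM). Fold changes against these means rest on low values. With a pseudocount of 0.1, 7 differences from MacHigh grew by the larger SD of the groups or more. In Kit+Sca1-, Pltp went from -6.95 to -7.83 and Msr1 from -5.97 to -7.07.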
